A study of Rattus rattus with 23 samples.

Results

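The mucus genes of goblet and secretory cells were followed in the respiratory epithelium of the nose, in male rats (Sprague-Dawley) that had breathed hydrogen sulfide (H2S), a toxic gas that blocks mitochondrial respiration, or air. The set holds 10 genes of the 14218 with a symbol of their own on the Affymetrix Rat230_2 array: the mucins Muc5ac, Muc5b, Muc1 and Muc4, the secreted proteins Bpifb1, Scgb1a1 and Tff3, the folding factor Agr2, and the transcription factors Spdef and Creb3l1. They were chosen by name, as the probe sets to which the platform annotation gives 1 of these symbols, and each gene had a single probe set (1371009_at for Muc5ac, 1384561_at for Muc5b, 1398318_at for Muc1, 1370926_at for Muc4, 1381964_at for Bpifb1, 1367566_at for Scgb1a1, 1387218_at for Tff3, 1393121_at for Agr2, 1382937_at for Spdef and 1374575_at for Creb3l1). No second probe set was therefore at hand to set beside any value. Per the labels, epithelium was laser captured from the site that the gas injures, its RNA was amplified in 2 rounds, and each of the 23 arrays holds 1 sample, whose title number is used here as the animal's number. The organism field names Rattus rattus, whereas the taxonomy entry and the strain are those of Rattus norvegicus. Rats of the 3 h (n = 4), 6 h (n = 3) and 24 h (n = 4) groups breathed 200 ppm H2S through the nose for a single session of 3 h and are labelled by the time since the first exposure. Rats of the 144 h group (n = 4) breathed the same dose for 3 h on each of 5 days. Controls that breathed air were taken at 24 h (n = 4) and at 144 h (n = 4). Per the labels their air sessions also lasted 3 h, on 1 day for the 24 h group and on 5 days for the 144 h group. The 2 air groups thus differ in the number of sessions as well as in time. The H2S groups of 3 h and 6 h have no air group of their own time and were set against air at 24 h, so that time and exposure differ together there. Age is 60 days in the sample labels and 10 weeks in the design text. For animals 6 (H2S, 3 h), 14 (H2S, 24 h) and 18 (air, 24 h) the treatment field gives 5 daily exposures, against their titles, which were followed here.

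Respiratory epithelium of the nose is covered by mucus that goblet cells store in granules and release, and that ciliated cells move along. The gel of that mucus is formed by the secreted mucins Muc5ac and Muc5b, while Muc1 and Muc4 are anchored in the cell membrane. Mucins are folded in the endoplasmic reticulum with the help of the disulfide isomerase Agr2, and Spdef drives the goblet cell programme in mouse airways.

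Levels are given as log2 of the probe set signal plus 16, per animal, and a difference of 1 on this scale is a doubling for signals well above 16. A difference was called where limma, fitted to all 23 arrays, gave a Benjamini-Hochberg adjusted p under 0.05 over the 19822 probe sets kept by a filter on low values (a signal over the array's own median in 3 or more animals). Muc5b and Agr2 lay above the array median on all 23 arrays, and 7 other members on 18 to 22. Scgb1a1, the main secreted protein of club cells, lay under it on 22 of 23 arrays and did not pass the filter. This product of club cells was therefore not well measured, and the counts below are over the other 9. The ciliated cell factor Foxj1 (group means from 8.89 to 10.05) and the basal cell keratin Krt5 (8.95 to 10.53) were both measured in every group, where the median signal of an array, as plain log2 without the added 16, ran from 7.09 to 8.41. Omp, the olfactory marker protein, had group means from 5.29 to 7.26. In captured tissue, fewer cells of a type and less RNA per cell cannot be told apart, and this holds for every difference given here.

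Among the controls, 2 arrays were unlike the others. The correlation of an array with the rest had a median of 0.408 for animal 18 (air, 24 h) and of 0.685 for animal 22 (air, 144 h), against 0.820 to 0.900 for the other 21. Both were kept, and values without them are given where they matter. RNA integrity numbers, known for 19 arrays, ran from 1.7 to 10.

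No mucus gene was called in any of the 8 comparisons. In H2S animals at 24 h against air animals at 24 h, limma called 0 of the 9 tested members, where it called 0.0101% of all kept probe sets. The difference was positive for 7 members and negative for 2, with a median of 1.07 against 0.073 over all kept probe sets. An unadjusted p under 0.05 was reached by Muc1 and Agr2, both higher in H2S (4.8% of all kept probe sets), and by 0 members in the other direction (3.29% of all). The groups did not overlap for Muc1 and Muc4, again higher in H2S (2.22% of all), and for 0 members lower in H2S (1.57% of all). Without animals 18 and 22 the median difference was 0.78, and without animals 6, 14 and 18, whose treatment field disagrees with their titles, it was 0.53.

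In H2S animals at 144 h against air animals at 144 h, 0 of 9 members were called, with 0% of all kept probe sets. The median difference was 0.22 against -0.022 over all, and 5 members were positive and 4 negative. Without animals 18 and 22 the median was -0.015, and over single animals left out it ran from -0.090 (without animal 20) to 0.64 (without animal 21). Only Muc4 had an unadjusted p under 0.05 (3.8% of all higher in H2S, and 4% lower), and the groups overlapped for all 9 (2.5% of all did not overlap with H2S higher, and 3.43% with H2S lower). Integrity numbers were 4.8, 5.1, 4.5 and 1.7 in these H2S animals and 5.6, 6.4, 5.1 and 6.9 in the air animals. With the integrity number as a covariate the median was 0.45.

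At 3 h, set against air animals at 24 h, 0 of 9 members were called, where 0.0807% of all kept probe sets were. The median difference was 0.87 against 0.087 over all, with 7 members positive and 2 negative. Muc1 had an unadjusted p under 0.05 in the direction of H2S (6% of all) and Tff3 in that of air (3.79% of all), and Muc4 and Bpifb1 had no overlap, both higher in H2S (3.02% of all, and 1.55% lower). The median was 0.70 without animals 18 and 22, and 0.44 without animals 6, 14 and 18.

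At 6 h, against the same air animals, 0 of 9 were called, where 0.00504% of all were. The median difference was -0.32 against 0.079 over all, with 4 members positive and 5 negative. Muc1 had an unadjusted p under 0.05 in the direction of H2S (3.45% of all), and Muc5ac and Bpifb1 in that of air (2.36% of all). Muc4 alone had no overlap, and was higher in H2S (2.49% of all, and 2.02% lower). The median was -0.81 without animals 18 and 22, and over single animals left out it ran from -0.88 (without animal 9) to 0.053 (without animal 10). One set of controls serves 3 comparisons (3 h, 6 h and 24 h), so that these stand side by side with no test of how alike they are.

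Among exposed animals, 6 h against 3 h, 0 of 9 members were called, where 0.00504% of all were. The difference was negative for 7 members, with a median of -0.54 against -0.014 over all, and Muc5ac, Muc5b and Bpifb1 had an unadjusted p under 0.05 (1.96% of all lower at 6 h, and 2.25% higher), with overlap for all 9 (3.16% of all did not overlap with 6 h higher, and 3.78% with 6 h lower). At 24 h against 6 h, 0 of 9 were called, where 0.0101% of all were, and all 9 differences were positive with a median of 0.95 against -0.014 over all. Here Muc5ac, Muc5b, Agr2 and Bpifb1 had an unadjusted p under 0.05 (1.77% of all higher at 24 h, and 1.3% lower), and Muc5ac had no overlap (3.4% of all higher at 24 h, and 3.13% lower). Both steps share the 6 h animals, which are described one by one further on.

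**Figure D1:**
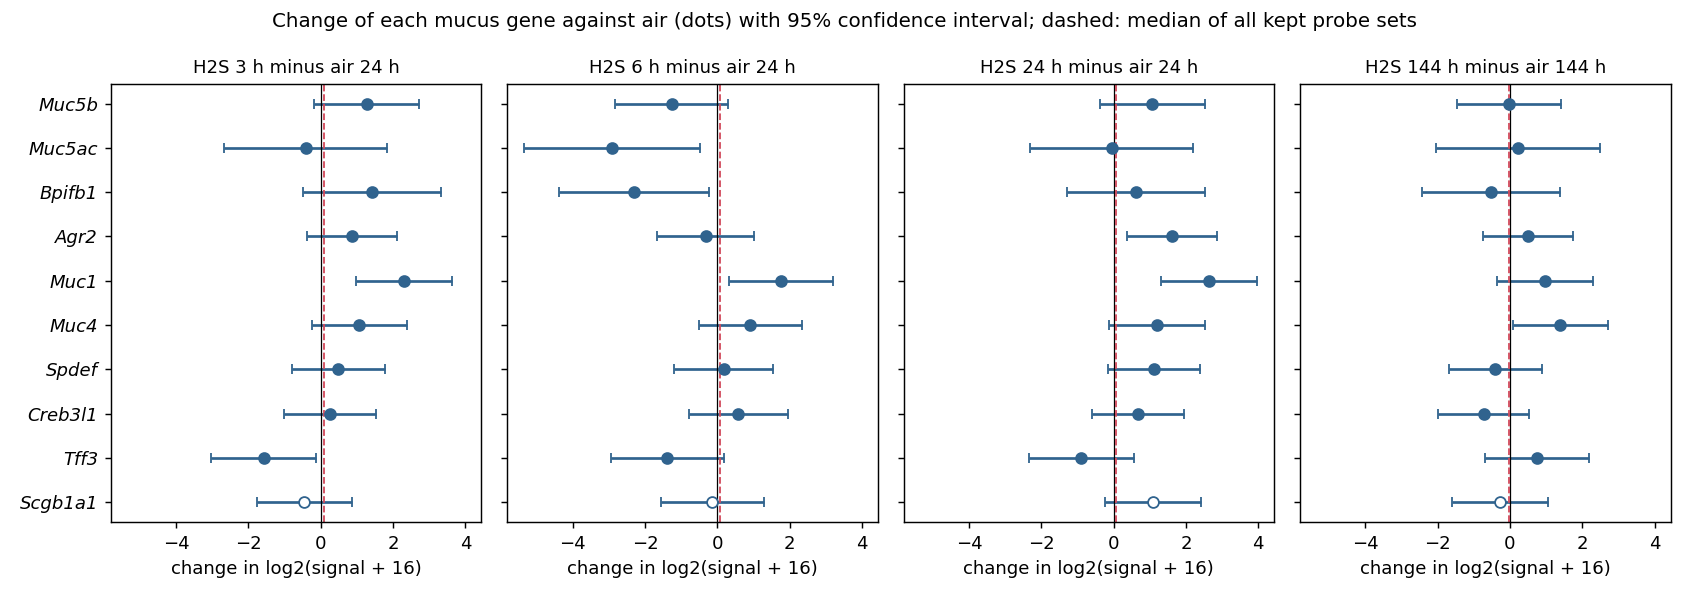
Difference of each mucus gene in 4 comparisons against air, in log2(signal + 16), with 95% confidence intervals; the dashed line is the median over all kept probe sets and the open circle is Scgb1a1, which is under the filter. Muc1 lies highest at 3 h, 6 h and 24 h (2.31, 1.77 and 2.65), and Muc5ac lies lowest at 6 h (-2.90).

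Muc5b is the gel-forming mucin that keeps mucus moving over healthy airways in mice. Its levels were 12.52, 13.30, 11.99 and 14.06 in H2S animals at 3 h, 8.63, 12.65 and 10.06 at 6 h, and 13.09, 13.19, 11.23 and 13.57 at 24 h, against 11.76, 12.75, 11.47 and 10.82 in air animals at 24 h. At 144 h they were 13.13, 12.10, 12.26 and 10.59 in H2S animals, against 12.17, 11.86, 12.06 and 12.09 in air animals. The 2 lowest values of all 23 belong to animals 8 and 10 of the 6 h group, while animal 9 of that group lay among the 3 h animals. The difference of 6 h against 3 h was -2.52 (standard error, SE, 0.752; limma unadjusted p = 0.00288, adjusted p = 0.705), and 6 of 19822 probe sets had a lower one. Without animal 9, which leaves only animals 8 and 10 at 6 h, it was -3.62 (limma adjusted p = 0.0421) and passes the threshold. That fit called 31 of 19683 probe sets, against 1 of 19822 as reported. Without animal 8 the difference was -1.61. Against air at 24 h it was 1.27 (SE 0.697) at 3 h, -1.25 (SE 0.752) at 6 h and 1.07 (SE 0.697) at 24 h, each overlapping. The value at 6 h was -0.35 without animal 8 and -2.35 without animal 9. At 144 h it was -0.030 (SE 0.697, 95% interval from -1.47 to 1.41), and 0.31 with median centring of the arrays.

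Muc5ac is the gel-forming mucin that goblet cells make in larger amounts when airways are irritated. It was listed at 10.05, 8.43, 7.95 and 10.42 in H2S animals at 3 h, 4.32, 7.72 and 8.13 at 6 h, and 9.19, 11.13, 8.83 and 9.18 at 24 h, against 7.91, 9.02, 10.64 and 10.95 in air animals at 24 h. At 144 h the levels were 10.61, 11.68, 9.34 and 9.84 in H2S animals, against 6.80, 9.0, 11.40 and 13.39 in air animals. Air animals at 144 h thus held both the highest value of all 23 and the second lowest, and the H2S animals lay inside that range. The difference at 144 h was 0.22 (SE 1.09, 95% interval from -2.03 to 2.48). It ran from -0.89 without animal 19 to 1.30 without animal 22, and its sign also turned without animal 20 or animal 24. At 24 h it was -0.048 (SE 1.09, interval from -2.30 to 2.21), which was 0.22 with median centring, -0.62 without animal 15 and 0.39 without animal 18. At 6 h against air at 24 h it was -2.90 (SE 1.18, limma unadjusted p = 0.0216, adjusted p = 0.781), with 4 of 19822 probe sets lower. Without animal 8, whose signal was 4.02, that difference was -1.70, and its size depends on the pseudocount (-3.59 with 1 and -2.26 with 64).

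Muc1, the membrane mucin that lines the apical surface, had the smallest p of the set at 24 h. Its levels were 10.07, 10.48, 10.18 and 11.17 in H2S animals, against 7.52, 8.14, 9.33 and 6.33 in air animals at 24 h, with no overlap. The difference was 2.65 (SE 0.640, 95% interval from 1.32 to 3.97; limma unadjusted p = 0.000426, adjusted p = 0.352), and 16 of 19822 probe sets had a higher one. It was 2.15 (adjusted p = 0.309) without animals 18 and 22, and the adjusted p ran from 0.102 to 1.00 over all alternatives. At 3 h Muc1 stood at 9.19, 10.38, 10.70 and 10.28, where the lowest H2S animal lay under the highest air animal, and the difference against air at 24 h was 2.31 (SE 0.640, adjusted p = 0.253). At 6 h it stood at 10.11, 8.66 and 10.02, a difference of 1.77 (SE 0.691, adjusted p = 0.781). At 144 h the levels were 9.23, 9.77, 9.65 and 10.14 in H2S animals, against 7.78, 7.10, 9.50 and 10.57 in air animals. The groups overlap, and the difference was 0.96 (SE 0.640, adjusted p = 0.730), from 0.41 without animal 20 to 1.57 without animal 22. In all 4 exposed groups together, animals ran from 8.66 (animal 9 at 6 h) to 11.17, and air animals ran from 6.33 to 10.57. Air animals 17, 21 and 22, at 9.33, 9.50 and 10.57, lay inside the range of the exposed animals.

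Muc4, a membrane mucin that binds the receptor ErbB2, gave the most even levels soon after exposure. It stood at 9.64, 9.43, 10.04 and 9.88 in H2S animals at 3 h, 9.29, 9.63 and 9.88 at 6 h, and 9.61, 10.43, 9.17 and 10.34 at 24 h, against 7.80, 8.81, 9.05 and 9.07 in air animals at 24 h. In each of these exposed groups the animals lay above all 4 air animals, as they did for 3.02%, 2.49% and 2.22% of all kept probe sets at 3 h, 6 h and 24 h. The same air animals serve each comparison. The margin at 24 h was narrow, with animal 13 at 9.17 and air animal 18 at 9.07. The differences were 1.07 (SE 0.636, adjusted p = 0.572) at 3 h, 0.92 (SE 0.687, adjusted p = 0.782) at 6 h and 1.21 (SE 0.636, adjusted p = 0.612) at 24 h. At 144 h the levels were 9.62, 9.90, 12.53 and 9.45 in H2S animals, against 7.19, 8.31, 9.80 and 10.60 in air animals. The groups overlap there, and the difference of 1.39 (SE 0.636, limma unadjusted p = 0.0393, adjusted p = 0.636) was 0.68 without animal 25, whose level was 12.53, and 1.94 without animal 22.

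**Figure D2:**
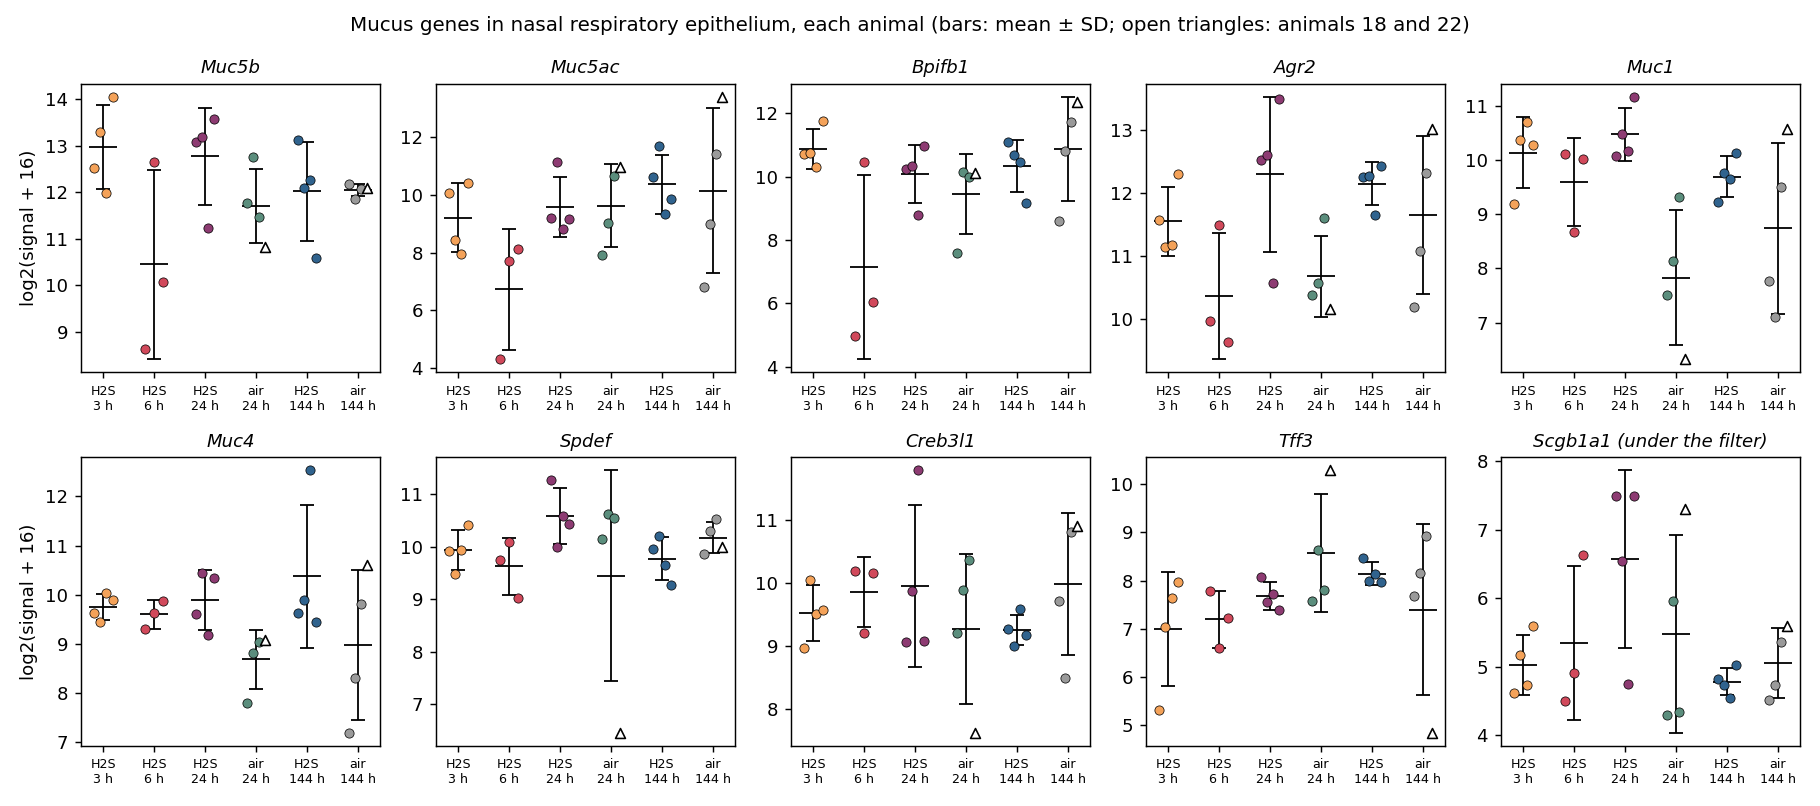
Level of each mucus gene in each animal, in log2(signal + 16), by group, with the mean and SD over animals as bars; each panel has its own axis. Muc4 at 24 h lies between 9.17 and 10.43 in H2S animals, above the air animals at 7.80 to 9.07, and Bpifb1 at 6 h has animals at 4.96, 6.06 and 10.46.

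Bpifb1, a secreted protein of airway lining fluid related to bactericidal permeability-increasing protein, had the widest range of levels after Muc5ac. Its levels were 10.71, 10.74, 10.31 and 11.76 in H2S animals at 3 h, 4.96, 10.46 and 6.06 at 6 h, and 10.25, 10.33, 8.78 and 10.97 at 24 h, against 7.58, 10.16, 10.00 and 10.12 in air animals at 24 h. Animals 8 and 10 at 6 h were again the lowest of all 23, and animal 9 lay among the 3 h animals. The difference of 6 h against 3 h was -3.72 (SE 0.997, limma unadjusted p = 0.00116, adjusted p = 0.555), and 1 of 19822 probe sets had a lower one. Animal 8 had a signal of 15.2, so the size again depends on the pseudocount (-4.15 with 1 and -3.03 with 64), and it was -2.62 without animal 8. Leaving out animal 9, and so keeping only animals 8 and 10 at 6 h, gave -5.37 (limma adjusted p = 0.0335). This passes the threshold, in a fit that called 31 of 19683 probe sets. Bpifb1 at 3 h lay above all 4 air animals, with a difference of 1.41 (SE 0.923, adjusted p = 0.604) that was 0.78 without animal 15. At 24 h the groups overlapped, with a difference of 0.62 (SE 0.923) that was -0.012 without animal 15. At 144 h it stood at 11.08, 10.69, 10.46 and 9.18 in H2S animals, against 8.59, 10.83, 11.74 and 12.35 in air animals, and the difference was -0.53 (SE 0.923), from -1.29 without animal 19 to -0.034 without animal 22.

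Scgb1a1 was low throughout, with levels from 4.50 to 7.50 in H2S animals, against 4.30 to 7.30 in air animals. Its values at 24 h were 7.50, 6.54, 4.74 and 7.50 in H2S animals against 4.30, 5.96, 4.34 and 7.30 in air animals, with overlap. With no filter the difference was 1.09 (SE 0.636, adjusted p = 0.667). Such levels are signals of at most 165, where the pseudocount weighs on every difference.

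Tff3 is a trefoil peptide that is secreted with mucins and takes part in repair of mucosal surfaces. It ran from 5.32 to 7.97 in H2S animals at 3 h, from 6.59 to 7.78 at 6 h and from 7.39 to 8.08 at 24 h, against 7.57 to 10.28 in air animals at 24 h. It was the only member with a negative difference in all 3 of these comparisons under every one of the alternatives tried. The difference at 3 h was -1.58 (SE 0.695, limma unadjusted p = 0.0327, adjusted p = 0.477), and -1.01 without animal 18, which had the level of 10.28. At 144 h Tff3 ran from 7.98 to 8.48 in H2S animals, against 4.85 to 8.93 in air animals, where animal 22 was the lowest. That difference was 0.74 (SE 0.695), and -0.11 without animals 18 and 22.

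Agr2, the folding factor, was lowest in the same 2 animals as Muc5b and Bpifb1. Its levels were 11.57, 11.13, 11.18 and 12.31 in H2S animals at 3 h, 9.96, 11.50 and 9.62 at 6 h, and 12.52, 12.60, 10.57 and 13.50 at 24 h, against 10.37, 10.57, 11.60 and 10.15 in air animals at 24 h. At 24 h 3 of the 4 H2S animals lay above every air animal. The difference was 1.62 (SE 0.599, 95% interval from 0.38 to 2.86; limma unadjusted p = 0.0130, adjusted p = 0.606), from 1.22 without animal 14 to 2.19 without animal 13. At 24 h against 6 h it was 1.93 (SE 0.647, unadjusted p = 0.00676 and adjusted p = 1.00 by limma). At 144 h Agr2 stood at 12.25, 12.27, 11.64 and 12.42 in H2S animals, against 10.19, 11.07, 12.32 and 13.01 in air animals, an overlap with a difference of 0.50 (SE 0.599) that was 0.012 without animal 19 and 0.95 without animal 22.

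Spdef and Creb3l1, transcription factors that act in the goblet cell programme and in secretory cells, gave differences that single animals decide in part. Spdef ran from 9.47 to 10.41 at 3 h, from 9.03 to 10.08 at 6 h and from 9.99 to 11.27 at 24 h in H2S animals. Air animals at 24 h had 10.14, 10.63, 10.55 and 6.46, the last being animal 18, and the difference at 24 h was 1.13 (SE 0.615), or 0.13 without animal 18. At 144 h Spdef ran from 9.26 to 10.20 in H2S animals, against 9.86 to 10.53 in air animals, with a difference of -0.40 (SE 0.615). Creb3l1 ran from 8.96 to 10.05 at 3 h, from 9.21 to 10.19 at 6 h and from 9.07 to 11.79 at 24 h in H2S animals, against 7.62 to 10.36 in air animals at 24 h, with animal 18 again the lowest. At 144 h it ran from 9.0 to 9.58 in H2S animals, against 8.49 to 10.91 in air animals. The differences of Creb3l1 against air were 0.26, 0.58, 0.68 and -0.73 at 3 h, 6 h, 24 h and 144 h, with SE from 0.611 to 0.660. Without animal 18 the value was -0.29 at 3 h and 0.036 at 6 h. At 24 h it was 0.073 without animal 13, which had the level of 11.79, and -0.12 with array weights.

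In the order of the 6 group means, few neighbours lay further apart than the pooled SD within groups. For Muc1, Muc4, Agr2, Tff3, Spdef and Creb3l1 none of the 5 gaps between neighbours did. For Muc5ac, Muc5b and Bpifb1 a single gap did, in each case the one above the 6 h group, which was lowest. Muc5b was highest at 3 h in H2S animals (12.97 ± 0.903, SD, n = 4), Muc1, Agr2 and Spdef at 24 h in H2S animals, Muc5ac and Muc4 at 144 h in H2S animals, Bpifb1 and Creb3l1 at 144 h in air animals, and Tff3 at 24 h in air animals. Within groups the members were more variable than most genes. The SD was 1.72 for Muc5ac, larger than that of 99.4% of kept probe sets, 1.45 for Bpifb1 (98.3%) and 1.07 for Muc5b (88.2%), against a median of 0.701 over all, and the lowest of the 9, Agr2, was at 0.901 (75.2%).

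The 3 animals of the 6 h group differed from each other for some members and not for others. Relative to the mean of the 3 h animals, animals 8, 9 and 10 stood at -4.34, -0.32 and -2.91 for Muc5b, at -5.91, -0.42 and -4.82 for Bpifb1, and at -1.59, -0.051 and -1.92 for Agr2. For Muc5b, Bpifb1 and Agr2, animals 8 and 10 lay under the lowest 3 h animal, and animal 9 above it. For Muc5ac the values were -4.89, -1.49 and -1.08, and animals 8 and 9 lay under the lowest 3 h animal. For Muc1 they were -0.031, -1.47 and -0.12, with animal 9 lowest. Muc4 (-0.46, -0.12 and 0.13), Spdef (-0.18, 0.15 and -0.90), Creb3l1 (0.66, -0.31 and 0.64) and Tff3 (0.79, -0.40 and 0.23) all lay within 1 unit of the 3 h mean. Animals 8 and 10 had integrity numbers of 5.8 and 6.4, and none is given for animal 9. Relative to all genes of an array, 22 other goblet and club cell products stood at 1.53, 1.39 and 1.67 in animals 8, 9 and 10. The lowest 3 h animal was at 1.68. The 19 measured goblet cell regulators and folding factors stood at 1.06, 0.44 and 1.25, so animal 9 was lowest for both lists. On the same scale, the level of the 21 measured leukocyte markers was -0.70 and -0.91 in animals 8 and 10 and 0.98 in animal 9. That of the 19 ciliated markers was 0.21, -0.84 and 0.20 in animals 8, 10 and 9. Their part in the levels of these mucus genes was not tested.

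**Figure D3:**
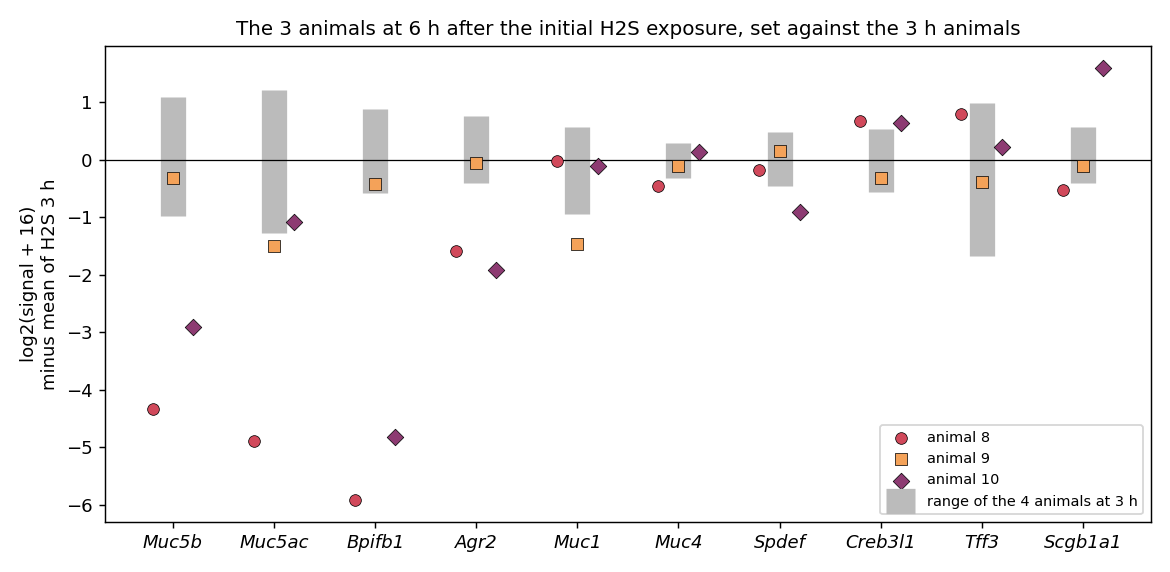
Level of each mucus gene in the 3 animals sampled at 6 h, in log2(signal + 16), minus the mean of the 3 h animals, with the range of the 4 animals at 3 h as a grey bar. Animals 8 and 10 lie far under the bar for Bpifb1 (-5.91 and -4.82) and Muc5b (-4.34 and -2.91), and animal 9 lies inside it for both.

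Over the 23 animals, the member most like Muc5b was Bpifb1, which was also nearest to Muc5b among all 11248 other genes (Pearson r = 0.767, Spearman rho = 0.641, as a description with no test). Over the 21 arrays without animals 18 and 22 r was 0.833, and Bpifb1 was again nearest. Without animals 8 and 10, the 2 farthest from the median of Muc5b, r was 0.469, so the likeness rests in good part on them. With each group's mean taken out, r was 0.700. Next to Muc5b came Mocs1 (r = 0.744), Otx2 (0.690), Guk1 (0.683) and Bok (0.667). The genes nearest to Bpifb1 were Otx2 (0.840), Fgfbp1 (0.828), Ttll9 (0.793), Capn13 (0.791) and Prdx6 (0.790), with Muc5b at rank 14, Muc5ac at 18 and Agr2 at 32. Those nearest to Muc5ac were Alox12 (0.823), Lsm10 (0.794), Prdx6 (0.770), LOC102550331 (0.770) and Acsm1 (0.757), with Bpifb1 at rank 8.

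Agr2 was nearest to Aldh3b1 (0.855), Cldn22 (0.849), Plaat5 (0.849), Elof1 (0.840) and Pierce1 (0.835). Its r with Bpifb1 was 0.722 (rho 0.659), and 0.680 without animals 10 and 14, the 2 farthest from the median of Agr2. The gel-forming mucins were less alike: r of Muc5b with Muc5ac was 0.399 (rho 0.184) and -0.045 without animals 8 and 10. The membrane mucins Muc1 and Muc4 had r = 0.605 (rho 0.656), 0.626 without animals 18 and 20, and Muc1 with Muc5b 0.155. Spdef had r = 0.403 with Muc5b (rho 0.299) and 0.396 with Agr2 (rho 0.349). These are 10 pairs, and all points share the array, its scaling and its RNA quality.

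**Figure D4:**
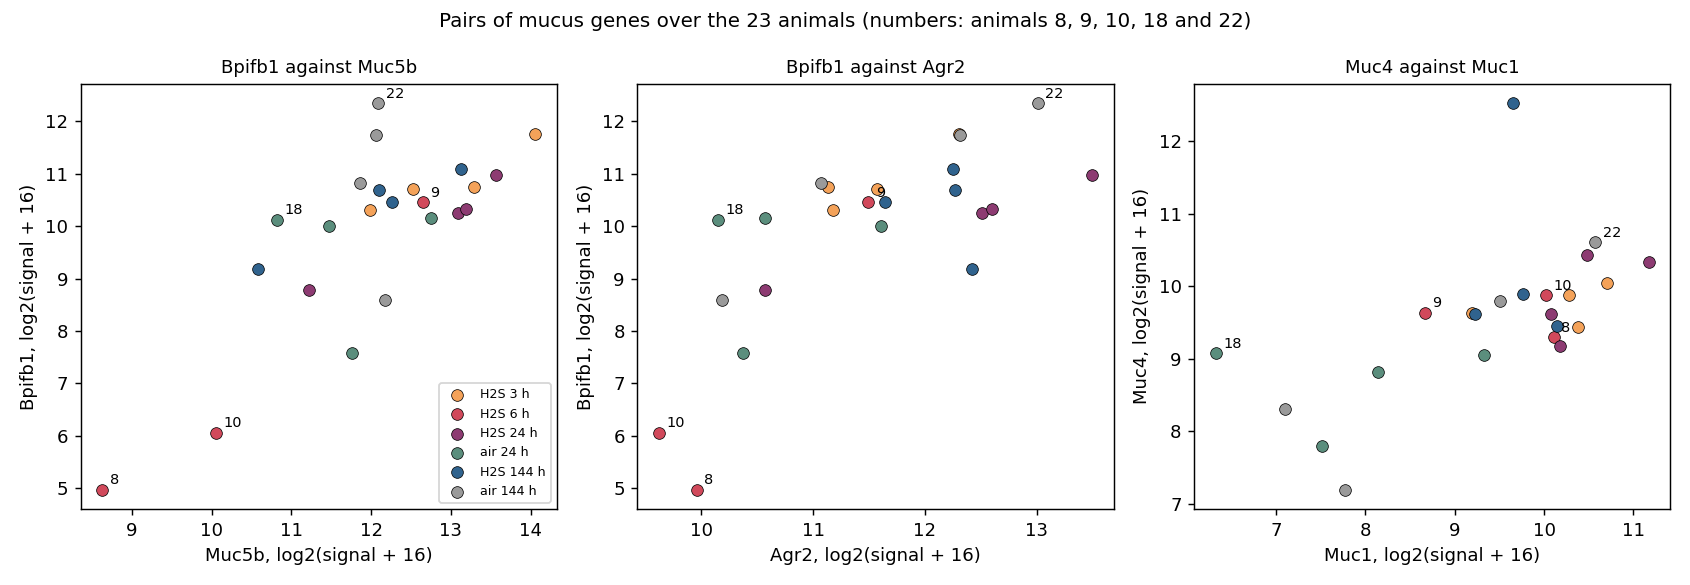
Pairs of mucus genes over the 23 animals, with both axes in log2(signal + 16) and groups by colour; animals 8, 9, 10, 18 and 22 are numbered. Animals 8 and 10 set the low end of Bpifb1 against Muc5b (r = 0.767, and 0.469 without them) but lie among the other exposed animals for Muc4 against Muc1.

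Other genes tied to mucus or to secretory cells were read from 5 lists. The list called other mucins had 5 of 15 genes measured (Muc2, Muc13, Mcam, Emcn and Cd164), of which only Muc2 and Muc13 carry a mucin symbol. The remaining lists were mucin glycosylation (22 of 30), goblet cell regulators and folding factors (19 of 29), and granule trafficking and secretion (23 of 33). Other goblet and club cell products (22 of 37) included the keratins Krt8, Krt18 and Krt19. No gene of any list was called in any comparison, against the shares of all probe sets given above. At 24 h against air, 16 of 22 glycosylation genes, 15 of 19 regulators, 18 of 22 products and 16 of 23 granule genes had positive differences, with medians of 0.25, 0.46, 0.50 and 0.34, where 54.9% of all kept probe sets were positive. An unadjusted limma p under 0.05 in the direction of H2S was reached by 1, 1, 4 and 1 of them (4.8% of all kept probe sets). In the direction of air it was reached by 0, 1, 0 and 1 (3.29% of all). Of the other mucins, 3 of 5 were positive at 24 h (median 0.31) and 2 of 5 at 144 h (median -0.34). At 144 h the numbers of positive differences were 11 of 22, 11 of 19, 13 of 22 and 9 of 23, with medians of -0.0098, 0.071, 0.36 and -0.11, where 48.4% of all were positive. Glycosylation genes, regulators and granule genes were positive for 17 of 22, 11 of 19 and 13 of 23 at 3 h (medians 0.16, 0.14 and 0.13, with 55.4% of all positive). At 6 h they were positive for 13 of 22, 11 of 19 and 15 of 23 (medians 0.28, 0.13 and 0.18, with 55% of all positive), whereas products were positive for 10 of 22 (median -0.24). The other mucins were positive for 2 of 5 at 3 h (median -0.29) and 4 of 5 at 6 h (median 0.34).

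The lowest adjusted p of these lists came at 3 h against air at 24 h. Krt19, a keratin of simple and secretory epithelium, differed by 2.97 (SE 0.612, adjusted p = 0.0770) with no overlap, and passed in 7 alternatives, among them that without animals 18 and 22 (2.90, adjusted p = 0.0323). B4galt1, a galactosyltransferase that extends glycans, differed by 1.41 (SE 0.303, adjusted p = 0.0853) with no overlap, and passed in 2 alternatives. Slpi, a protease inhibitor of airway secretions, differed by 2.46 (SE 0.656, adjusted p = 0.228). At 6 h against 3 h, B4galt1 differed by -1.29 (SE 0.327, adjusted p = 0.517) and Krt19 by -1.78 (SE 0.661, adjusted p = 0.998), both with no overlap. Products were positive for 18 of 22 genes at 3 h against air, negative for 18 of 22 at 6 h against 3 h, and positive for 18 of 22 at 24 h against 6 h, with medians of 0.65, -0.51 and 0.62. Of all kept probe sets, 55.4%, 48.6% and 48.8% were positive in these comparisons. Neighbouring comparisons share the 3 h or the 6 h animals, so their directions are tied to each other.

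Clca1, a secreted goblet cell protein that processes mucus, differed by 1.81 (SE 0.780, adjusted p = 0.612, with overlap) at 24 h and Clca2 by 0.94 (SE 0.412, adjusted p = 0.612). Air animals at 144 h were themselves higher in Clca1 than air animals at 24 h, by 1.60 (SE 0.780, adjusted p = 0.600). The exposure effect on Clca1 at 144 h minus that at 24 h was -2.68 (SE 1.10, limma unadjusted p = 0.0235, adjusted p = 0.946). Among regulators, the receptor Egfr differed by 1.40 (SE 0.553, adjusted p = 0.442) at 3 h and 1.27 (adjusted p = 0.612) at 24 h, with values of 0.59 and 0.47 without animals 18 and 22. Il4r, a chain of the receptors for interleukins that drive goblet cells, differed by -1.42 (SE 0.549, adjusted p = 0.612) at 24 h, or -0.73 without those 2 animals, and its signalling factor Stat6 by -1.31 (SE 0.394, adjusted p = 0.580) at 144 h, each with no overlap. Fut1, a fucosyltransferase, differed by 1.49 (SE 0.545, adjusted p = 0.603) at 24 h, and Krt19 by 2.03 (SE 0.612, adjusted p = 0.520) with no overlap. Of the other mucins, Mcam, a membrane glycoprotein listed with them, differed by -1.10 (SE 0.537) at 24 h, or -0.48 without animals 18 and 22, and Muc13 by 1.25 (SE 0.838) at 6 h. Of the granule genes, the synaptotagmin-like Sytl2 differed by 1.97 (SE 0.735) and the anion exchanger Slc26a4 by -1.82 (SE 0.737) at 6 h against air, and Ano1, a chloride channel, by -1.25 (SE 0.441) at 3 h, all with adjusted p from 0.398 to 0.781.

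The exposure effect at 144 h minus that at 24 h was negative for 6 of the 9 members, with a median of -1.12 against -0.093 over all, and limma called 0 of 9, with 0% of all. No member had an unadjusted p under 0.05 (1.78% of all were positive and 2.91% negative at that p). Muc1 had the lowest p of the 9 at -1.69 (SE 0.904, limma unadjusted p = 0.0752), and -0.58 without animals 18 and 22. Between air animals at 144 h and at 24 h, 8 of 9 differences were positive with a median of 0.72 against 0.077 over all, and 0 were called, with 0% of all. No member had an unadjusted p under 0.05 (5.1% of all were higher at 144 h and 3.27% lower), and all 9 overlapped (1.24% of all did not with 144 h higher, and 0.848% with 144 h lower). Without animals 18 and 22 that median was -0.12, so its direction depends on those 2 arrays.

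Markers of other cell types differed beside some of these values, and their part was not tested. At 3 h against air at 24 h, leukocyte markers were positive for 18 of 21 (median 0.70), with the log2 of their summed signal from 14.66 to 16.11 in H2S animals, against 14.003 to 15.518 in air animals. Ciliated cell markers were positive there for 16 of 19 (median 0.73), with sums from 15.03 to 15.93 in H2S animals, against 13.98 to 14.89 in air animals. Basal cell markers were positive for 11 of 14 (median 0.75), with sums from 14.71 to 16.36 in H2S animals, against 13.64 to 14.46 in air animals. At an unadjusted limma p under 0.05, 5 basal, 3 ciliated and 3 leukocyte markers were higher there (6% of all kept probe sets). Nasal gland markers were negative at 3 h for 7 of 10 (median -0.53), olfactory markers for 8 of 11 (median -0.58), and markers of stroma and vessels for 7 of 12 (median -0.085). Of these, 1 olfactory marker was lower at that p (3.79% of all). At 6 h against air at 24 h, ciliated markers were negative for 16 of 19 (median -0.51) and nasal gland markers for 8 of 10 (median -0.91), with gland sums from 16.90 to 17.67 in H2S animals, against 17.44 to 20.16 in air animals. Basal markers were positive at 6 h for 10 of 14 (median 0.61) and leukocyte markers for 11 of 21 (median 0.063). At 6 h against 3 h, 19 of 19 measured ciliated cell markers were negative (median -1.32), with sums from 13.56 to 14.42 at 6 h and from 15.03 to 15.93 at 3 h. An unadjusted limma p under 0.05 was reached by 7 of them (1.96% of all lower at 6 h). All 21 leukocyte markers were negative too (median -0.68), with sums from 13.76 to 16.12 at 6 h and from 14.66 to 16.11 at 3 h. Markers of stroma and vessels were positive in this step for 10 of 12 (median 0.36). At 24 h against 6 h the ciliated markers were positive for 19 of 19 (median 1.01). Markers of stroma and vessels were negative in that step for 11 of 12 (median -0.56), and leukocyte markers for 16 of 21 (median -0.34). At 24 h against air, basal cell markers were positive for 11 of 14 (median 0.85), with sums from 14.64 to 16.00 in H2S animals, against 13.64 to 14.46 in air animals. Ciliated markers were positive there for 16 of 19 (median 0.34), and leukocyte markers negative for 15 of 21 (median -0.38). Nasal gland markers were negative for 7 of 10 (median -0.56), with sums from 16.20 to 18.30 in H2S animals, against 17.44 to 20.16 in air animals. Relative to all genes of an array, the gland level was 2.55, 2.91 and 2.65 in air animals 15, 16 and 17 and 4.11 in animal 18. In H2S animals its group mean was 2.29 at 6 h and 2.42 at 24 h. At 144 h against air, 19 of 19 ciliated markers were positive (median 1.12), with sums from 15.27 to 16.82 in H2S animals, against 13.53 to 16.54 in air animals. An unadjusted limma p under 0.05 was reached by 7 of these (3.8% of all higher in H2S). Basal markers were positive there for 10 of 14 (median 0.705) and leukocyte markers for 10 of 21 (median -0.040). Nasal gland markers were negative at 144 h for 7 of 10 (median -0.65), 3 of them at an unadjusted limma p under 0.05 (4% of all). Olfactory markers were positive for 7 of 11 at 24 h (median 0.27) and 4 of 11 at 144 h (median -0.24) against air, and markers of stroma and vessels for 4 of 12 (median -0.28) and 2 of 12 (median -0.64). No marker of any list was called, and none is listed at 0 in any animal.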

How the data were processed

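RNA expression was measured on 23 Affymetrix Rat230_2 arrays, 1 per animal. Per the file headers and values, the authors deposited an intensity for every probe set, in linear units. GCOS 1.0 is named in the submitters' processing notes, with settings not given in the sources used here. Scaling to a common level was inferred from the trimmed means (2% cut from both ends), which were all near 500. Array medians ran from 136 to 341. The number of arrays limits the precision. No normalization was added. Gene names came from the platform annotation, and 57 control probe sets were left out. Nothing in the labels names litters or repeat arrays. The p-values set a difference against the spread between these samples, which are assumed to be independent animals.

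Tests were two-sided and used limma 3.58.1 under R 4.3.3, with a mean for each of 6 groups over all 23 arrays and default settings of lmFit and eBayes, on log2(signal + 16), a scale that understates differences of genes with low signals. Of 31099 probe sets 19822 were kept. The script was tested on simulated data. Where a listed gene had several kept probe sets, the one with the highest mean stood for it. All members were named. Of the lists, up to 3 genes a comparison with the smallest p could be named, and the nearest 5 genes by Pearson r for Muc5b, Muc5ac, Bpifb1 and Agr2. For Scgb1a1, which was not kept, no nearest genes were sought. Members and lists were chosen with earlier results of these data known. The level of a list is the mean of its genes on the log2 scale, less the mean over every measured gene. Alternatives were other pseudocounts (1 and 64), normalizations, filters and variance options, array weights, the RNA integrity number, fits of fewer groups, and leaving out arrays. Sequences and genome positions were not used here.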

Additional observations from a re-analysis of the deposited data

Results flagged for a closer look

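In 4 of the 50 combinations of a gene and a group of 4 animals, a single animal lay far from the other 3 by Dixon's test, where chance gives about 1 in 20. Muc5ac was 11.13 in animal 12 of the H2S group at 24 h, with the other 3 between 8.83 and 9.19. Muc4 was 12.53 in animal 25 of the H2S group at 144 h, with the others between 9.45 and 9.90. Bpifb1 was 7.58 in animal 15 of the air group at 24 h, with the others between 10.00 and 10.16. Spdef was 6.46 in animal 18 of the same air group, whose array stands apart from the rest, with the others between 10.14 and 10.63.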

How the results depend on the processing

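Over the 9 tested members and the 8 comparisons, 2656 differences were computed under 14 other settings and with each of the 23 animals left out. Of these, 2557 had the same sign as reported, 99 the other, and 10 were called. With array weights limma called 2 members at 6 h against 3 h (Muc5b -3.21, adjusted p = 0.0365, and Bpifb1 -4.71, adjusted p = 0.0206) and 3 at 24 h against 6 h (Muc5b 3.30, Agr2 2.33 and Bpifb1 4.13), and over all probe sets 52 at 24 h, 67 at 3 h, 68 at 6 h, 110 at 6 h against 3 h and 93 at 24 h against 6 h, against 2, 16, 1, 1 and 2 as reported. With RNA integrity added to the fit as a covariate, which drops animals 5, 6, 9 and 15, Bpifb1 was the 1 member called at 6 h against air (-5.19, adjusted p = 0.0196), at 6 h against 3 h (-5.17, adjusted p = 0.0221) and at 24 h against 6 h (4.72, adjusted p = 0.0492). Of all 19383 probe sets in that fit, 29, 14 and 2 were called in these comparisons, against 1, 1 and 2 as reported. The fit holds only animals 8 and 10 at 6 h. Leaving out 1 animal gave 0 to 2 members called at 6 h against 3 h, with 2 only without animal 9. Without that animal 31 of 19683 probe sets were called. The median over members was 0.11 at 3 h with the covariate, and at 6 h against air -0.97 with it and -0.98 on the same 19 arrays without it, a setting chosen after seeing the data. Between the air groups it was -0.15 with array weights and -0.12 without animals 18 and 22. For the difference of exposure effects it was -0.36 with array weights, -0.028 with the covariate and -0.36 without integrity numbers under 3. The causes were not tested. Median centring moved the median of all kept probe sets to 0.34 at 24 h and 0.32 at 144 h. No paired analysis was possible because no animal number is shared between groups.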
